A study of Mus musculus with 8 samples.

Results

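The subject is a set of 33 autophagy and lysosome genes, measured in mouse liver mRNA. Members were chosen by gene symbol from a written list, and a member was used if its FPKM was at least 1 in at least 2 libraries. FPKM is fragments counted per length of transcript and per number of mapped fragments, the unit of the deposited values. All 33 members were found among 23699 loci, and all 33 passed that filter, as did 10865 loci in all.

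Livers came from 8-week-old male C57/BL6 mice in 4 groups of 2 mice each. Control mice and LMKO mice, in which Med23 was ablated in the liver, were studied after a 24 h fast (fasted) or after the same fast followed by 24 h of food (re-fed). Every group was therefore fasted first. Med23 is part of Mediator, a coactivator through which transcription factors act on RNA polymerase, and the promoter that drives the liver deletion is not given in the labels.

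Autophagy carries cytoplasm and organelles to the lysosome for breakdown. A kinase complex starts the process, a lipid kinase complex marks the membrane, and small proteins of the Atg8 family are joined to the growing membrane by ubiquitin-like conjugation. Cargo receptors bind what is to be degraded, and lysosomal hydrolases such as the cathepsins digest it. In liver, autophagy is known for supplying nutrients during fasting, and the transcription factor TFEB is known to control many of these genes through E-box-like sites.

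The promoter windows of 4 members are shown first, because these genes differ in how they moved with feeding and in whether they hold the E-box core CACGTG. Each window runs from 250 bases before to 50 bases after a gene's start in RefSeq, build GRCm38.p6, and capitals mark CACGTG, which reads the same on both strands. The Wipi1 window lies at chr11:109611340-109611639 on the minus strand and has no CACGTG. Wipi1 was the only member called between the genotypes, in fasted livers and over both states. The fasted call was kept in 1 of 8 analyses with a library left out, and in re-fed livers Wipi1 did not pass. The Atg14 window is at chr14:47568385-47568684 on the minus strand, and Atg14 fell on re-feeding. Atg3, which rose on re-feeding, has its window at chr16:45158579-45158878 on the plus strand. The Lamp1 window, at chr8:13158911-13159210 on the plus strand, holds 4 copies.
Wipi1: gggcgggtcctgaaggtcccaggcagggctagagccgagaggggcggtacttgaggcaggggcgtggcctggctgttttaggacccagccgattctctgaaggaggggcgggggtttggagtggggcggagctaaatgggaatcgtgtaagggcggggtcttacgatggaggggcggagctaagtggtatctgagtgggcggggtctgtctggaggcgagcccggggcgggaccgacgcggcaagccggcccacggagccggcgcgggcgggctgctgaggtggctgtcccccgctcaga
Atg14: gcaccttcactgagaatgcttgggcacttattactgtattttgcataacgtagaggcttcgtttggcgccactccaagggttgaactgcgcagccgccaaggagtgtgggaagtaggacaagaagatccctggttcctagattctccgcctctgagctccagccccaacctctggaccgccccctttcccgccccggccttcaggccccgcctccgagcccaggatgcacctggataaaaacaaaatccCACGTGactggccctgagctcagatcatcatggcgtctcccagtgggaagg
Atg3: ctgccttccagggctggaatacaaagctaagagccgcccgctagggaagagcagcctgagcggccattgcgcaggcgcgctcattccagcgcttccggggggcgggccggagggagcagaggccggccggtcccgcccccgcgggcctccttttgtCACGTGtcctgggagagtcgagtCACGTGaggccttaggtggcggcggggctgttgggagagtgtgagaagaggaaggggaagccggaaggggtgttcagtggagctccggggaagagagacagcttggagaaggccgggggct
Lamp1: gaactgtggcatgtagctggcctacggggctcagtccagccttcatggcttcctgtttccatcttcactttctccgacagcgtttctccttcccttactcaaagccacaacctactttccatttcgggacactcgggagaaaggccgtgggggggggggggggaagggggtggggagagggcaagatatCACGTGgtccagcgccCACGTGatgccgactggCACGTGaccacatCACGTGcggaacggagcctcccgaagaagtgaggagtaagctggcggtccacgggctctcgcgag

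RefSeq windows were matched for 26 members, with 29 windows in all. CACGTG stood in 9 of the 29 windows, or 31.0%, against 7.15% of all 32851 windows and 10.3% of the 9970 windows of tested genes. The longer form TCACGTG, which contains CACGTG and was searched on both strands, stood in 20.7% of member windows and in 6.13% of windows of tested genes. The letters GTAAACA, a core that forkhead factors are known to bind, were in none of the 29 windows and in 2.66% of windows of tested genes. Of the members with a window, CACGTG was found in 3 of 8 that fell on re-feeding, in 4 of 7 that rose and in 2 of 11 that did not pass. The match is a description of these letters only. Several windows can belong to 1 gene, so windows are not independent.

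Some facts of the libraries bear on every comparison. Med23 was at 2.33 to 2.93 FPKM in control libraries and at 1.61 to 2.35 FPKM in LMKO libraries, and within each feeding state both LMKO libraries were below both controls. The fragment number per library is unknown, but low values stood in recurring ratios that give a relative depth of 0.956 to 1.112. Of the low loci compared, 12.5% to 14.6% stood at the ratio used. Summed FPKM was 453652 to 468218 in fasted and 511926 to 597650 in re-fed libraries. Rn45s, a ribosomal RNA locus, was at 185 to 1324 FPKM fasted and 802 to 3448 FPKM re-fed. Alb was listed at 0 in all 8 libraries. The other 9 of 10 hepatocyte markers were tested, and their summed level was 24700 to 43500 FPKM. Deviations from the mean correlated with transcript length across genes at 0.222 to 0.293 in the 4 fasted libraries. The same correlation was -0.357 to -0.325 in 3 re-fed libraries and -0.018 in re-fed control replicate 1. Deposited names carry 1 prefix in all fasted libraries and another in all re-fed ones, so any batch it marks cannot be told apart from feeding. Genotype comparisons lie within a prefix.

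Over the 33 members, mean FPKM ran from 2.57 for Tfeb to 346 for Ctsl, a cysteine cathepsin. FPKM is scaled to transcript length, so these levels can be set against each other, though only roughly. Deviations of the libraries still went with length. The reference length of Ctsl was 1971 bases when RefSeq-paired and 6168 bases at the longest. Ctsl, Lamp2 and Lamp1 were the most abundant members, at 346, 283 and 248 FPKM. At the low end stood Tfeb, Atg14 at 5.19 FPKM and Wipi1 at 7.80 FPKM. The ratio of the highest to the lowest library was 1.22 for Atg9a and 5.14 for Npc1.

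**Figure D1:**
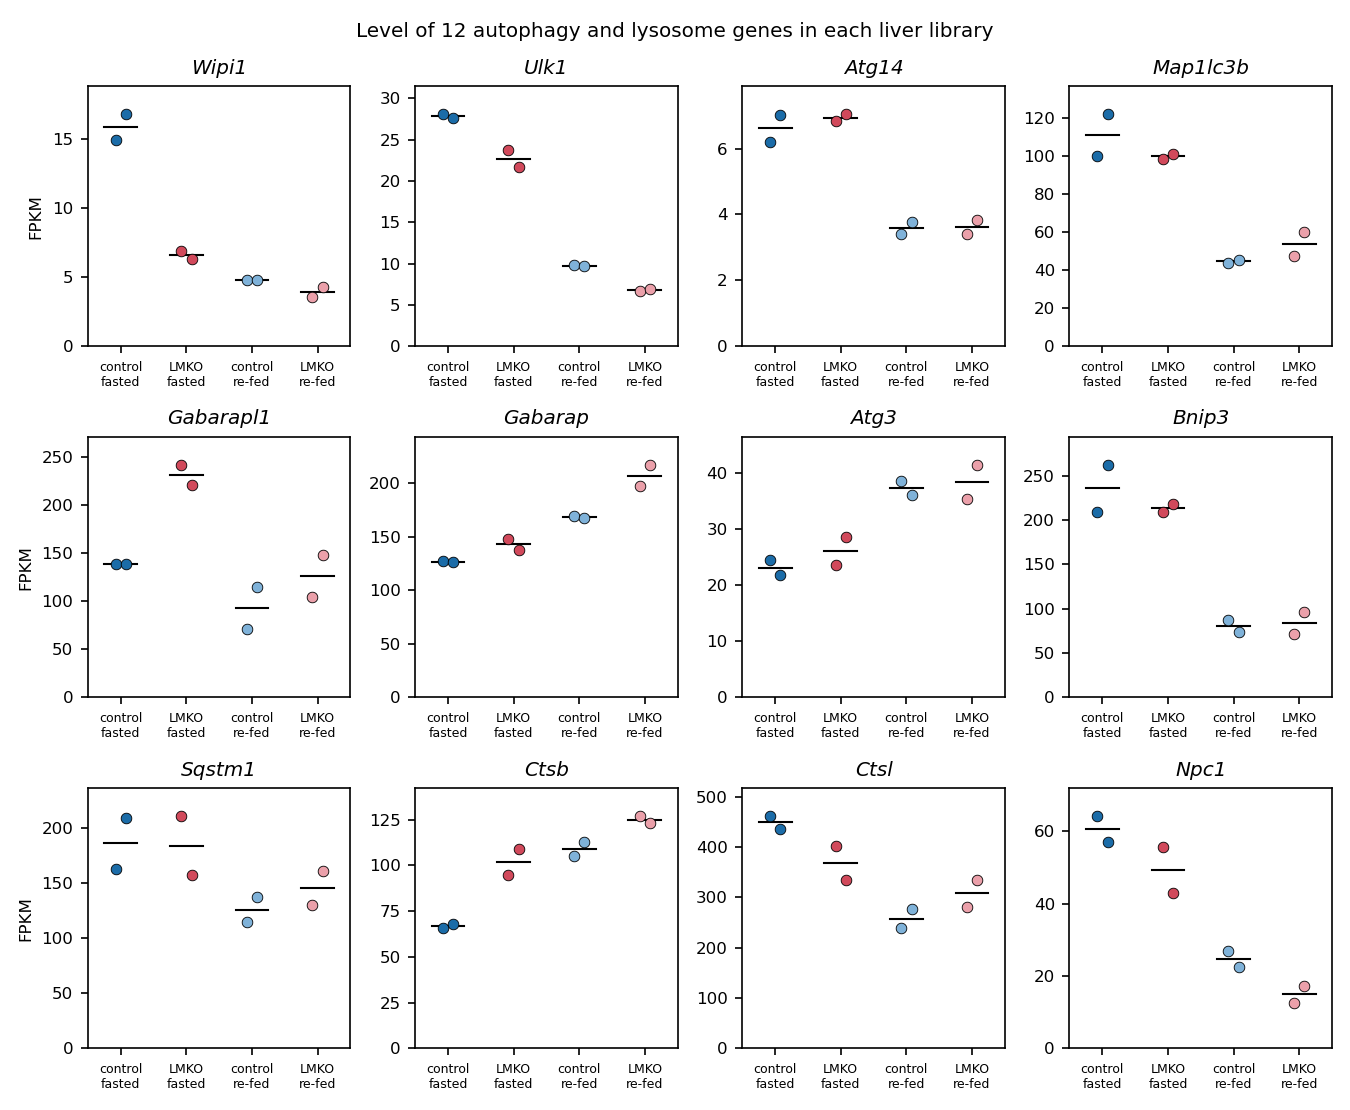
FPKM of 12 members in each of the 8 libraries, 1 panel a gene with its own linear axis from 0, points for libraries and a line at the mean of each group of 2. Ulk1, Atg14, Wipi1, Map1lc3b, Bnip3 and Npc1 are lower in every re-fed than in every fasted library. Wipi1 in fasted LMKO, at 6.88 and 6.34 FPKM, lies well below fasted controls.

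The first question was how re-feeding after a fast changed these genes. Over both genotypes, 11 members fell, 8 rose and 14 did not pass. Among those that fell were Ulk1, 1 of 3 initiation genes, and Atg14, 1 of 3 genes of the lipid kinase complex, while all 3 cargo receptors fell. Mean FPKM of Ulk1, Npc1 and Bnip3 was at 0.328, 0.36 and 0.366 of the fasted mean. Among those that rose were 4 of 6 conjugation genes, and Atg3 was the only one of these 4 called under median-ratio scaling or quantile normalization. A gene was called at a limma adjusted p under 0.05, with Benjamini-Hochberg adjustment over all 10865 tested loci, on log2(FPKM + 1). In this comparison 53.1% of all tested loci were called, 20.6% lower and 32.4% higher, against 57.6% of members, 33.3% lower and 24.2% higher. The members' share of calls is thus near the background. The members' median log2 fold change was -0.14, and that of all tested loci was 0.10.

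Ulk1, the kinase that starts autophagosome formation, had the smallest p of the members. It was at 28.1 and 27.6 FPKM in controls and 23.7 and 21.7 in LMKO when fasted, and 9.81 and 9.70 in controls and 6.69 and 6.94 in LMKO when re-fed. Every re-fed library was below every fasted one. The log2 fold change was -1.51 (SE 0.072, n = 4 against 4, limma adjusted p = 9.11e-05). Its paralog Ulk2 stayed between 9.46 and 12.8 FPKM in all 8 libraries, with a log2 fold change of -0.07 (adjusted p = 0.618). Atg13, the regulatory partner of Ulk1, had a log2 fold change of 0.14 and did not pass.

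In the class III PI3-kinase complex, which makes the lipid PI3P on the forming membrane, only Atg14 passed. Atg14 directs this complex to autophagy. It was at 6.21 and 7.03 FPKM in controls and 6.82 and 7.05 in LMKO when fasted, and 3.41 and 3.77 in controls and 3.42 and 3.82 in LMKO when re-fed. The 2 genotypes had almost the same values, and the feeding states did not overlap. The log2 fold change was -0.76 (SE 0.080, limma adjusted p = 0.000631). The scaffold Becn1 had a log2 fold change of 0.19 (adjusted p = 0.0788), and Uvrag, the alternative partner, spread from 8.71 to 22.6 FPKM.

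Wipi1 binds PI3P on the forming membrane, and it fell by 1.53 on the log2 scale in controls (SE 0.12, limma adjusted p = 0.00123). In LMKO it fell by 0.62 (SE 0.12, limma adjusted p = 0.00916). Its family member Wipi2 had a log2 fold change of -0.21 over both genotypes (adjusted p = 0.0891). Atg9a, which brings lipid to the membrane, ranged only from 16.3 to 19.9 FPKM.

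The Atg8 family did not move as 1 group. Map1lc3b, the LC3 protein most used as a marker of autophagosomes, was at 99.8 and 122 FPKM in fasted controls and at 43.7 and 45.5 in re-fed controls. In LMKO it was at 98.5 and 101 FPKM fasted and at 47.5 and 59.8 re-fed. Its log2 fold change over both genotypes was -1.09 (SE 0.11, limma adjusted p = 0.000555). Gabarapl1 also fell, from 139 and 139 to 71.6 and 115 FPKM in controls and from 242 and 221 to 104 and 148 FPKM in LMKO. Its log2 fold change was -0.75 (SE 0.18, limma adjusted p = 0.0119), and without a filter on low values the adjusted p was 0.0604. Map1lc3a was at 28.2 and 30.1 FPKM in controls and 42.6 and 31.2 in LMKO when fasted, and 19.1 and 25.2 in controls and 27.0 and 25.9 in LMKO when re-fed.

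Gabarap rose, whereas Gabarapl1, of the same GABARAP branch of the family, fell and Gabarapl2 did not pass. It was at 127 and 126 FPKM in controls and 148 and 138 in LMKO when fasted, and 169 and 167 in controls and 197 and 217 in LMKO when re-fed. All 4 re-fed libraries were above all 4 fasted ones. The log2 fold change was 0.47 (SE 0.079, limma adjusted p = 0.00314), but the adjusted p was 0.503 after quantile normalization and 0.259 with the length trend removed. Map1lc3a fell by 0.42 (limma adjusted p = 0.0338), a call lost when any library other than fasted LMKO replicate 2 and re-fed control replicate 2 was left out, and Gabarapl2 had a log2 fold change of 0.18 (adjusted p = 0.116).

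Of the 6 genes of the conjugation machinery, 4 rose and none fell, beside 32.4% of all tested loci called higher. Under median-ratio scaling only Atg3 was called, with limma adjusted p of 0.172 for Atg4b, 0.109 for Atg5 and 0.0897 for Atg7. After quantile normalization these 3 had 0.0919, 0.551 and 0.0858. Atg3, the E2-like enzyme that passes Atg8 proteins to lipid, was at 24.5 and 21.7 FPKM in controls and 23.5 and 28.5 in LMKO when fasted, and 38.5 and 36.0 in controls and 35.3 and 41.4 in LMKO when re-fed. The log2 fold change was 0.61 (SE 0.10, limma adjusted p = 0.0032), the only rise of a member kept in all 18 alternative analyses. Atg7, the E1-like enzyme, was at 9.48 and 7.47 FPKM in controls and 11.9 and 9.17 in LMKO when fasted, and 11.3 and 11.3 in controls and 12.4 and 13.5 in LMKO when re-fed. Its log2 fold change was 0.34, and that of Atg4b, the protease that trims Atg8 proteins, was 0.23. Atg4b was at 7.89 and 7.99 FPKM in controls and 9.10 and 8.43 in LMKO when fasted, and 9.43 and 9.50 in controls and 9.83 and 11.1 in LMKO when re-fed. Atg5, which is joined to Atg12, was lowest in fasted LMKO, at 16.7 and 14.9 FPKM, against 23.3 and 20.6 in fasted controls. When re-fed it was at 24.5 and 24.1 FPKM in controls and 19.9 and 22.3 in LMKO. It rose by 0.27 over both genotypes. The calls of Atg7, Atg4b and Atg5 had limma adjusted p of 0.0418, 0.0406 and 0.0354. Those of Atg7 and Atg5 were lost when any library other than the first replicates of both fasted groups was left out, and that of Atg4b when any library was left out. Atg12 and Atg16l1 did not pass, at -0.07 and -0.27.

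All 3 cargo receptors fell. Bnip3, a receptor for mitochondria, was at 209 and 262 FPKM in controls and 209 and 218 in LMKO when fasted, and 86.6 and 73.6 in controls and 71.8 and 96.1 in LMKO when re-fed. It fell by 1.44 on the log2 scale (SE 0.13, limma adjusted p = 0.000406), with -1.54 in controls and -1.35 in LMKO. Its paralog Bnip3l was at 29.6 and 36.8 FPKM in fasted controls, while the other 6 libraries lay between 20.8 and 24.4. Sqstm1, which encodes the ubiquitin-binding receptor p62, was at 163 and 209 FPKM in controls and 211 and 157 in LMKO when fasted, and 115 and 137 in controls and 130 and 161 in LMKO when re-fed. The feeding states overlapped for Sqstm1 in LMKO, and the log2 fold change of -0.44 (limma adjusted p = 0.0453) was lost when any library other than fasted control replicate 1 and fasted LMKO replicate 2 was left out. For Bnip3l the log2 fold change was -0.34 (limma adjusted p = 0.0267), lost when any library other than fasted control replicate 1 and re-fed LMKO replicate 2 was left out. Tfeb itself stayed between 2.20 and 2.95 FPKM, with a log2 fold change of -0.10.

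Lysosomal members split by gene. Npc1, which moves cholesterol out of the lysosome, was at 64.3 and 57.1 FPKM in controls and 55.8 and 43.0 in LMKO when fasted, and 27.0 and 22.4 in controls and 12.5 and 17.3 in LMKO when re-fed. Its log2 fold change was -1.47 (SE 0.14, limma adjusted p = 0.000473), and the feeding states did not overlap. Npc2, the soluble partner that hands cholesterol to Npc1, rose instead. It was at 12.3 and 10.8 FPKM in controls and 14.3 and 13.3 in LMKO when fasted, and 15.8 and 18.0 in controls and 15.0 and 16.5 in LMKO when re-fed, with a log2 fold change of 0.35 (SE 0.088, limma adjusted p = 0.0153). That call was lost without fasted LMKO replicate 2 and without re-fed LMKO replicate 2. Lipa, the acid lipase, did not pass (log2 fold change -0.14).

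Among the cathepsins, Ctsb and Ctsl, both cysteine proteases, moved in opposite directions. Ctsb was at 65.9 and 68.1 FPKM in controls and 94.6 and 109 in LMKO when fasted, and 105 and 113 in controls and 127 and 123 in LMKO when re-fed. Fasted controls were the lowest group for Ctsb, and its log2 fold change of 0.50 (SE 0.084, limma adjusted p = 0.00317) had an adjusted p of 0.43 after quantile normalization. Ctsl was at 462 and 436 FPKM in controls and 402 and 335 in LMKO when fasted, and 239 and 276 in controls and 281 and 335 in LMKO when re-fed. Its log2 fold change was -0.53 (SE 0.11, limma adjusted p = 0.00692), and -0.20 (adjusted p = 0.216) with the length trend removed. With RefSeq-paired transcript lengths, a version chosen after seeing that value, Ctsl had -0.69 (limma adjusted p = 0.00277). The aspartic protease Ctsd was at 134 and 144 FPKM in controls and 156 and 131 in LMKO when fasted, and 192 and 155 in controls and 166 and 174 in LMKO when re-fed. Ctsd did not pass (log2 fold change 0.28, adjusted p = 0.0653), nor did Ctsa at -0.14.

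Lamp1, a main protein of the lysosomal membrane, was at 211 and 222 FPKM in controls and 235 and 233 in LMKO when fasted, and 278 and 260 in controls and 251 and 296 in LMKO when re-fed. It rose by 0.27 on the log2 scale (limma adjusted p = 0.041). The Lamp1 call was lost when any library other than re-fed LMKO replicate 1 was left out, and after quantile normalization its log2 fold change was -0.20. Lamp2 had a log2 fold change of -0.22 and did not pass.

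More falls than rises were kept under other settings. Of the 11 members that fell, 6 were called in all 18 alternative analyses, namely Ulk1, Wipi1, Atg14, Map1lc3b, Bnip3 and Npc1. Of the 8 that rose, only Atg3 was. Without re-fed control replicate 1, 12 members were called in place of 19, and without re-fed LMKO replicate 2 also 12. Calls over all loci in the analyses without these libraries are not given here. The split moved with scaling. Median-ratio scaling gave 4 rises and 15 falls, and quantile normalization gave 1 rise and 16 falls. Of all tested loci 27% rose and 27% fell under the first, and 25.9% and 25.7% under the second. Removing the length trend gave 6 rises and 10 falls, beside 30.4% and 15.4% of all tested loci. Median-ratio scaling moved the median log2 fold change of all tested loci from 0.10 to -0.0043, and it moved the share of rises among all calls from 61.1% to 50%, whereas removing the length trend moved it to 66.4%.

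**Figure D2:**
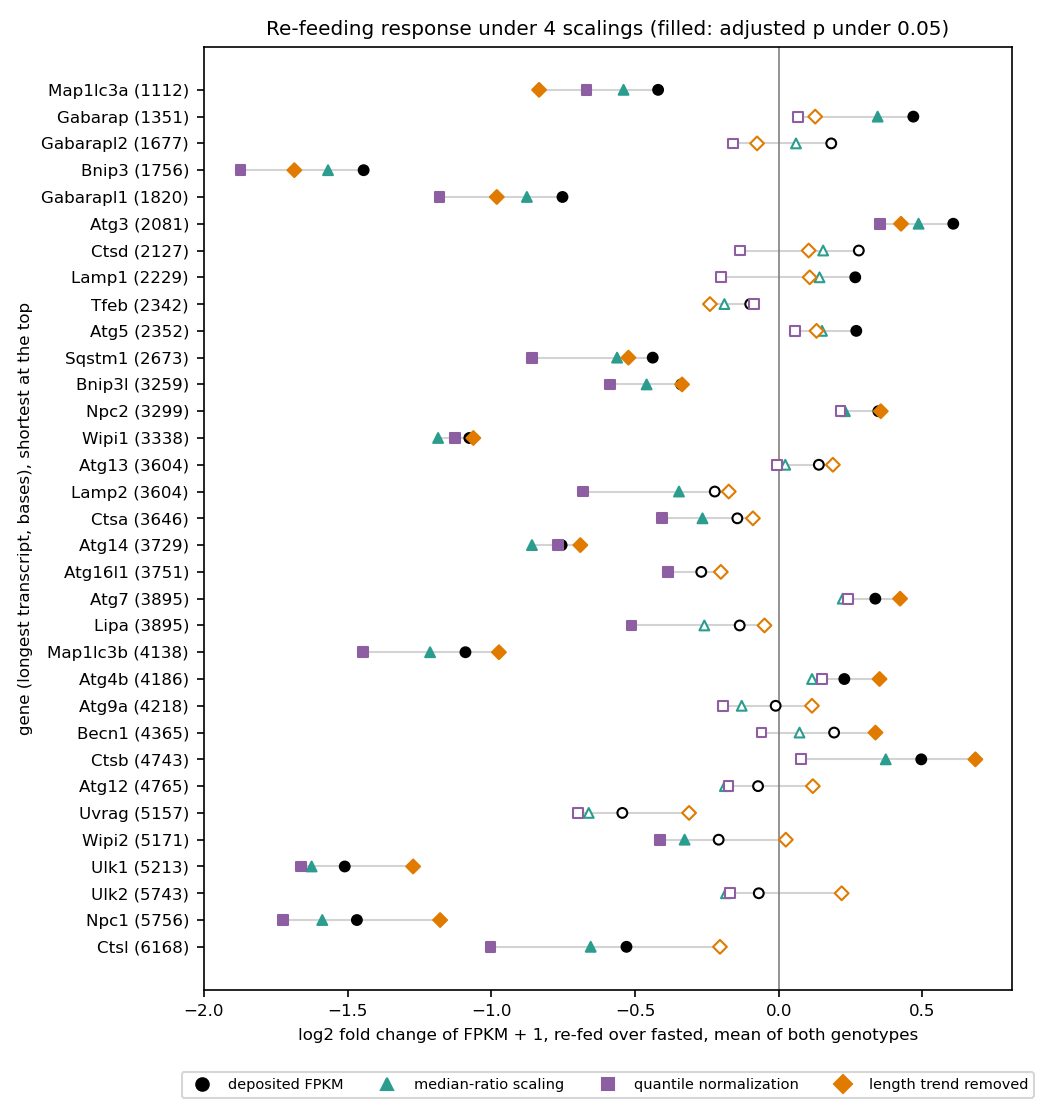
Log2 fold change of FPKM + 1, re-fed over fasted over both genotypes, for each member under 4 scalings, ordered by the length of the longest reference transcript in bases. Filled marks had an adjusted p under 0.05, and Ulk1, Bnip3, Npc1, Map1lc3b, Wipi1 and Atg14 stay at the left and filled under all 4. Gabarapl1, Map1lc3a, Sqstm1 and Bnip3l are also below 0 and filled under all 4.

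Markers of other liver cells also moved with feeding. The rises and falls called below are over both genotypes, beside 32.4% of all tested loci called higher and 20.6% lower. All 12 of 12 markers of Kupffer cells and macrophages were tested, none at 0 throughout, and 6 fell. Their summed level was 139 and 168 FPKM in controls and 147 and 190 in LMKO when fasted, and 112 and 151 in controls and 68.3 and 103 in LMKO when re-fed. Sinusoidal endothelium markers, tested in 8 of 8 with 7 falling, summed to 73.8 to 102 FPKM in fasted and 42.8 to 56.9 FPKM in re-fed libraries. Stellate markers, 8 of 8 tested, went both ways, with 3 called lower and 1 higher and a median log2 fold change of -0.02, and their sum was 92.5 to 105 FPKM fasted and 45.7 to 80.2 FPKM re-fed. Of 6 cholangiocyte markers 3 were tested and 1 rose, and they summed to 8.14 to 12 FPKM fasted and 24.2 to 30.2 FPKM re-fed. Of the lymphocyte markers 0 of 7 passed the filter. Of 9 tested hepatocyte markers, 3 rose and 4 fell on re-feeding. In re-fed livers LMKO was below control in 5265 of the 10865 tested loci. It was below control in 12 of 12 Kupffer, 8 of 8 stellate and 7 of 8 endothelial markers. Their median log2 fold changes were -0.55, -0.51 and -0.37, beside 0.0080 for all tested loci, and none of these markers was called. In fasted livers 7, 5 and 8 of these markers were higher in LMKO, beside 7042 of the 10865 tested loci. The part of other cells in the members' changes was not tested, and in bulk liver fewer cells of a type and less RNA per cell cannot be told apart.

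In controls alone, re-feeding lowered 8 members and raised 4, against 33.2% of all tested loci called, 10.5% lower and 22.8% higher. In LMKO alone it lowered 7 and raised 3, against 39.5% of loci, 16.3% lower and 23.2% higher. Ulk1, Atg14, Wipi1, Map1lc3b, Bnip3 and Npc1 were called lower in each genotype. Bnip3l and Ctsl were called lower in controls, with log2 fold changes of -0.61 and -0.80. In LMKO their values were -0.07 and -0.26, which did not pass. Ctsb and Npc2 were called higher in controls at 0.69 and 0.51, and had 0.30 and 0.18 in LMKO. Gabarapl1 had -0.61 in controls (limma adjusted p = 0.107) and -0.90 in LMKO (adjusted p = 0.0307). Atg5 had 0.14 in controls and 0.40 in LMKO (limma adjusted p = 0.0402). Over 19 alternatives, 6 of the 8 falls in controls and 5 of the 7 in LMKO were kept in all, and 0 of the 4 and 0 of the 3 rises. Without re-fed LMKO replicate 1, 6 members in place of 10 were called in LMKO, and the fall of Wipi1 there was no longer called.

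**Figure D3:**
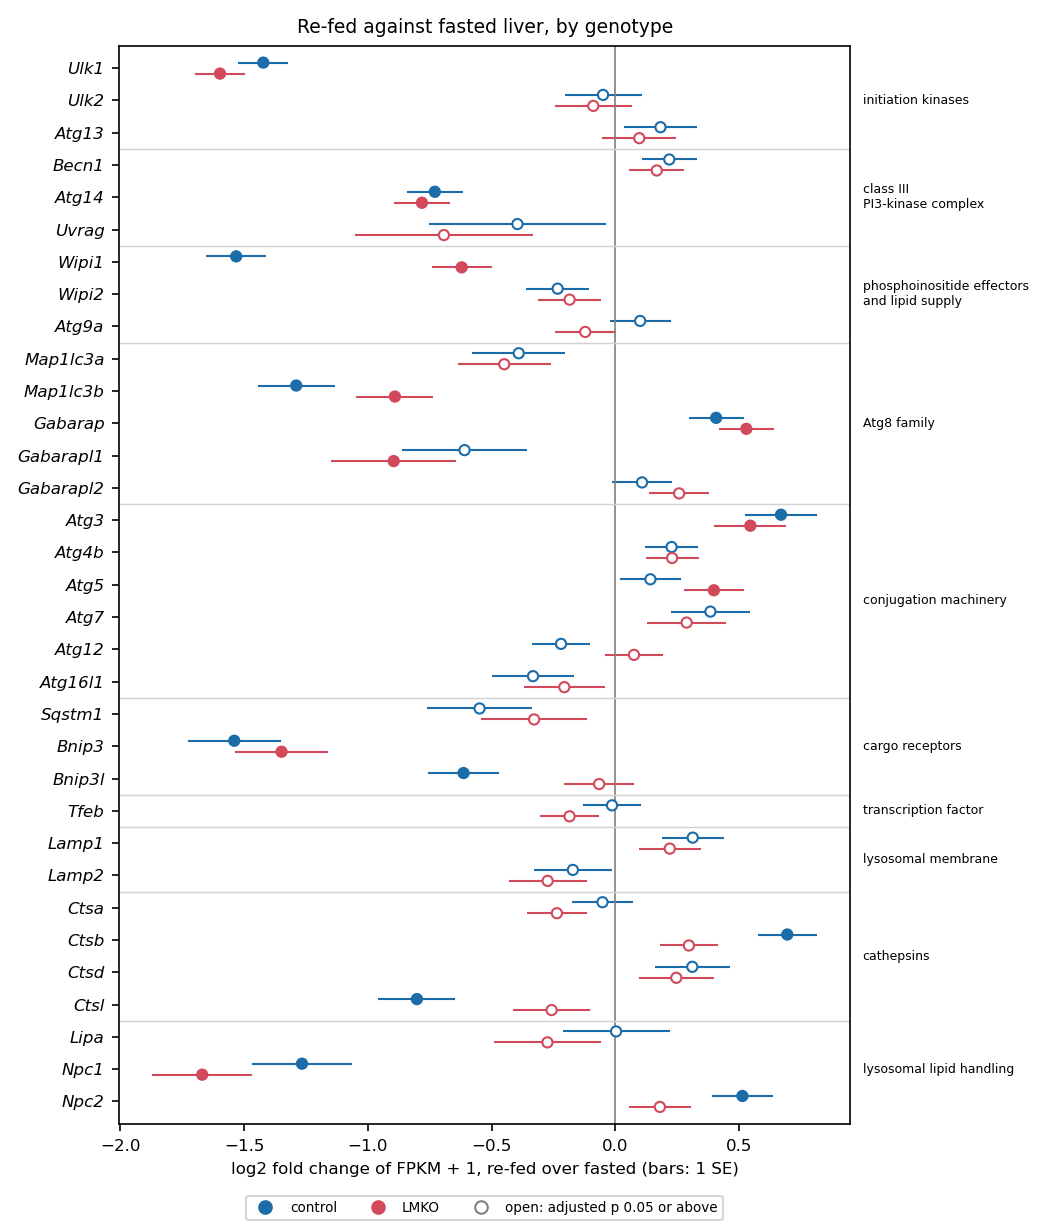
Log2 fold change of FPKM + 1, re-fed over fasted, for each member in control (blue) and LMKO (red) livers, with bars of 1 SE and filled points for adjusted p under 0.05. The points of the 2 genotypes lie furthest apart for Wipi1, at -1.53 in controls and -0.62 in LMKO.

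The difference between the re-feeding responses was tested directly. No member passed in limma, against 0.0368% of all tested loci called. At an unadjusted p under 0.05 there were 3 members, all with a positive difference, against 9.35% of loci in either direction. Of the loci at that p, 353 had a positive and 663 a negative difference. Wipi1 had a difference of 0.91 (SE 0.17, limma adjusted p = 0.451, range 0.225 to 0.735 over the alternatives). Bnip3l had 0.55 (limma adjusted p = 0.507) and Ctsl 0.54 (limma adjusted p = 0.524). A smaller response of these genes in LMKO is therefore not shown.

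The second question was whether loss of Med23 in the liver changed these genes at a given feeding state. In fasted livers 1 member, Wipi1, was called lower and none higher, against 0.166% of all tested loci called. In re-fed livers no member was called by limma, against 0.101% of loci, and 3 had an unadjusted p under 0.05, against 11.7% of loci. Over both states Wipi1 alone was called, against 0.313% of loci. The median log2 fold change of the members was 0.11 fasted and 0.06 re-fed, beside 0.08 and 0.0080 for all tested loci.

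Wipi1 lies at chr11:109434835-109472703 in mm9. It was at 14.9 and 16.8 FPKM in fasted controls and at 6.88 and 6.34 in fasted LMKO. In re-fed livers it was at 4.81 and 4.82 FPKM in controls and 3.60 and 4.31 in LMKO. Both fasted LMKO libraries lay between the fasted and the re-fed controls, and LMKO libraries were below controls in each state. The fasted log2 fold change was -1.14 (SE 0.12, n = 2 against 2, limma adjusted p = 0.0271), and the re-fed one -0.23 (adjusted p = 0.501). The mean of both was -0.69 (SE 0.086, limma adjusted p = 0.0408). The fasted call depends on the libraries used. It was kept in 1 of 8 analyses with a library left out, that without fasted control replicate 1, and the adjusted p over all alternatives was 0.00913 to 0.168. With only the 4 fasted libraries it was 0.14, and the call over both states was kept in 0 of 8. Both calls were lost with no filter on low values, where Ulk1 was the member called over both states, and with the replicate block, where the adjusted p was 0.0855 fasted and 0.11 over both.

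The 5 loci whose log2(FPKM + 1) was most like that of Wipi1 over the 8 libraries were 1300015D01Rik (Pearson r = 0.996), Ctcfl (0.989), Ppargc1a (0.982), 4932415G12Rik (0.982) and Eps8 (0.977). Ppargc1a encodes a coactivator known for its induction in fasted liver. It was at 6.66 and 6.64 FPKM in controls and 3.14 and 3.4 in LMKO when fasted, and 1.79 and 1.84 in controls and 1.26 and 1.5 in LMKO when re-fed. These loci were chosen for their likeness from 10865, and the 8 points share 4 group means. Some had low values. 4932415G12Rik reached an FPKM of 1 only in fasted controls, at 1.27 and 1.22. Ctcfl and Eps8 were at most at 0.583 and 0.53 FPKM in re-fed libraries, so they passed the filter through fasted libraries.

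The other members had values that did not pass in the fasted genotype comparison. Ctsb was higher in both fasted LMKO libraries, with a log2 fold change of 0.59 (SE 0.12, limma adjusted p = 0.145). Gabarapl1 had 0.73 (SE 0.25, limma adjusted p = 0.328). Bnip3l had -0.47 and Atg5, at 23.3 and 20.6 FPKM in fasted controls and 16.7 and 14.9 in fasted LMKO, had -0.45. Ulk1 had -0.29. In these 5 the libraries of the genotypes did not overlap. Of all 33 members, 11 were higher and 7 lower in fasted LMKO without overlap, beside 33% of all tested loci higher and 12.8% lower. In re-fed livers Npc1 had -0.70, Ulk1 -0.46 and Gabarap 0.30, with limma adjusted p of 0.319, 0.269 and 0.398.

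**Figure D4:**
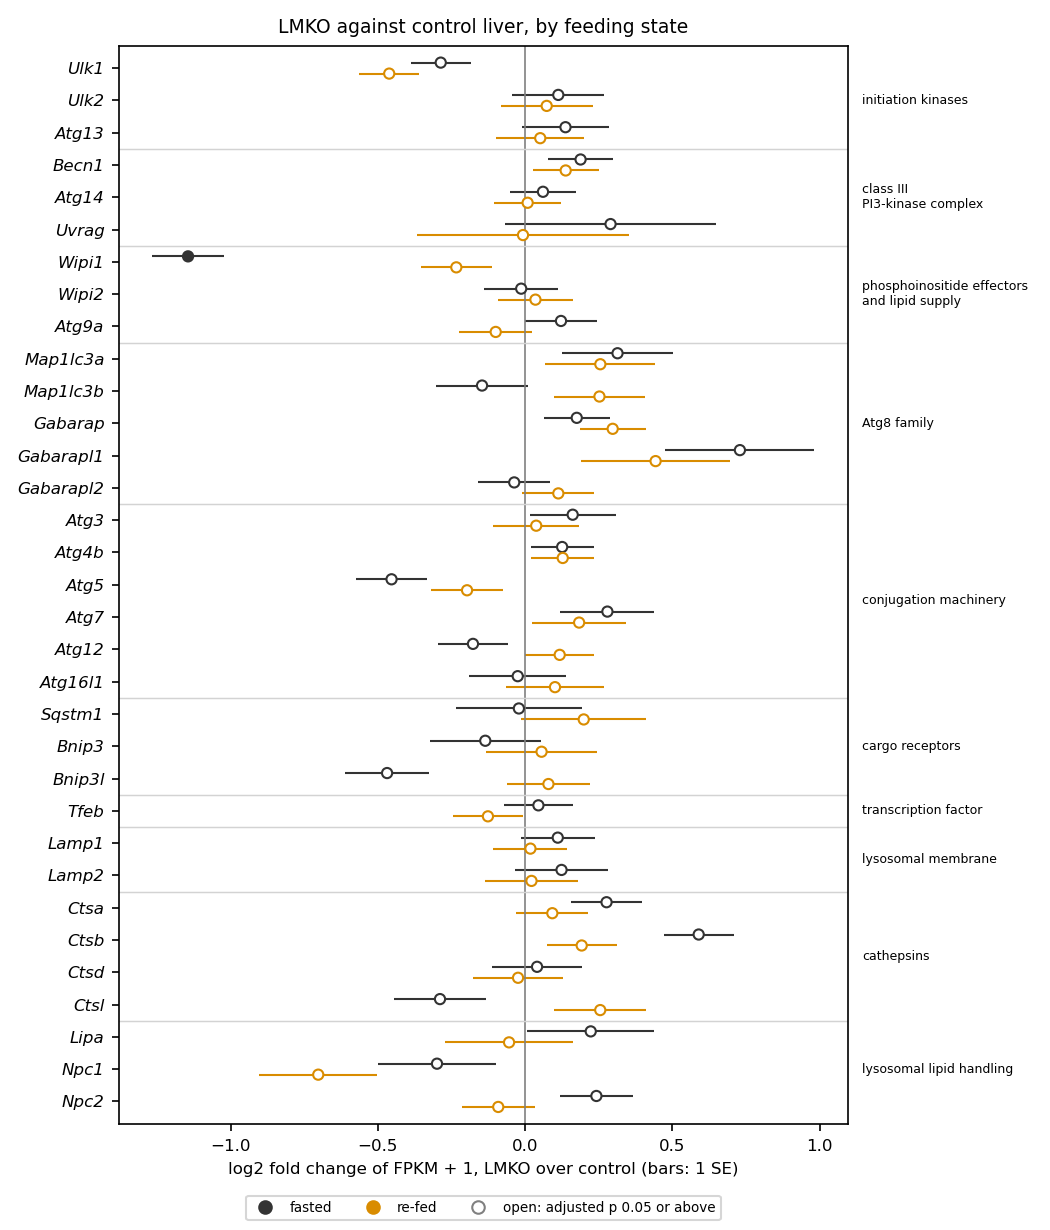
Log2 fold change of FPKM + 1, LMKO over control, for each member in fasted (black) and re-fed (orange) livers, with bars of 1 SE. Wipi1 in fasted livers, at -1.14, is the only filled point, the 1 member value with an adjusted p under 0.05.

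Beside the members, 143 of 150 further genes of the pathway, in 5 lists, were tested. In each genotype comparison and in the interaction, limma called 0 of the 143. At an unadjusted p under 0.05 there were 16 higher and 3 lower in fasted livers, beside 955 and 387 of the 10865 tested loci. In re-fed livers there were 6 higher and 7 lower, beside 773 and 496 loci. In the interaction there were 4 with a positive and 12 with a negative difference, beside 353 and 663 loci. On re-feeding over both genotypes, 39 rose and 37 fell, or 53.1% called, the same share as all tested loci.

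Other settings for these lists were chosen after seeing the data. Of 33 other autophagy genes, 13 fell and 4 rose, or 39.4% and 12.1%, beside 20.6% and 32.4% of all tested loci. Calcoco1, a receptor for endoplasmic reticulum, fell by 1.38 and Atg2a, a lipid transfer protein, by 1.35 on the log2 scale. Tmem41b, a scramblase needed for autophagosomes, rose by 1.13. All 8 libraries placed Atg2a at 13.3 to 20.9 FPKM fasted and 5.57 to 5.86 re-fed, without overlap. Among 42 other lysosomal hydrolases 15 rose and 7 fell, or 35.7% and 16.7%, beside 32.4% and 20.6% of all tested loci. The 7 falls became 3 without fasted LMKO replicate 1 and 4 without re-fed LMKO replicate 2. The beta-galactosidase Glb1 rose by 0.96, the alpha-galactosidase Gla by 0.82 and the GM2 activator Gm2a by 0.71, while the cathepsin Ctsf fell by 1.01.

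Subunits of the V-ATPase, the proton pump that acidifies the lysosome, rose in 10 of 17 tested genes, or 58.8%, and none fell. Among all tested loci 32.4% were called higher and 20.6% lower. The median log2 fold change of the subunits was 0.39, beside 0.10 for all tested loci. Quantile normalization left 2 rises and 3 falls, and removing the length trend left 4 rises and 0 falls. Of all tested loci 25.9% rose and 25.7% fell after quantile normalization, and 30.4% and 15.4% with the length trend removed. With median-ratio scaling, used below, these shares were 27% and 27%. Of 24 other membrane proteins 7 rose and 3 fell, or 29.2% and 12.5%, beside 32.4% and 20.6% of all tested loci. Median-ratio scaling gave 5 rises and 7 falls and quantile normalization 4 and 6, and the rises were 3 without fasted LMKO replicate 2 and 4 without fasted control replicate 2 or re-fed LMKO replicate 2. Of 27 transcriptional and kinase regulators 14 fell and 3 rose, or 51.9% and 11.1%, beside 20.6% and 32.4% of all tested loci. Removing the length trend left 9 falls, and quantile normalization gave 16 falls and 0 rises. Fnip1, a partner of folliculin, fell by 1.20, Deptor, an inhibitor of mTOR, by 1.19, and the ubiquitin ligase subunit Fbxo32 by 0.91. Deptor had -0.65 in controls (limma adjusted p = 0.0851) and -1.74 in LMKO (adjusted p = 0.00339), and the difference did not pass (adjusted p = 0.507).

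**Figure D5:**
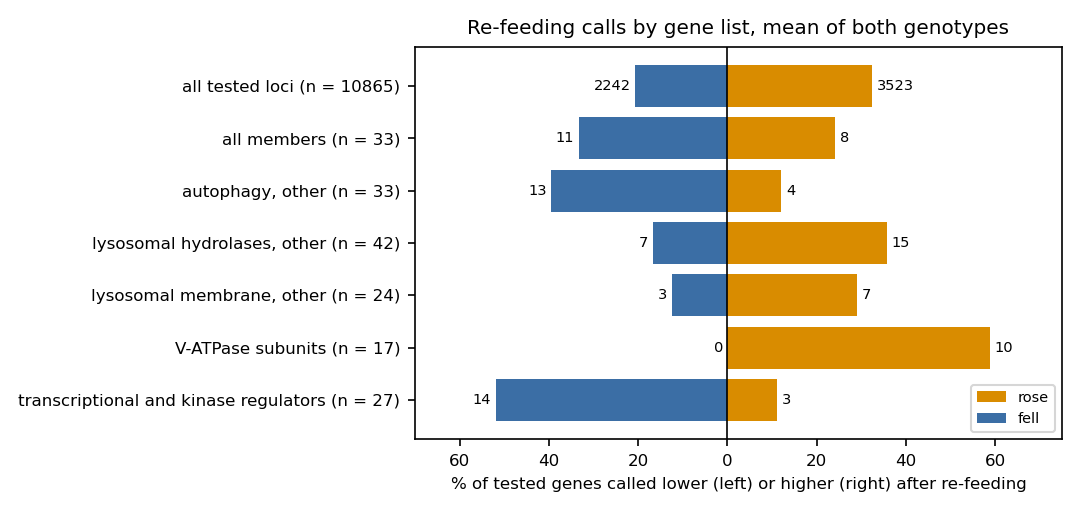
Share of the tested genes of each list called higher (right, orange) or lower (left, blue) on re-feeding over both genotypes, in % on the horizontal axis, with the number of genes at the end of each bar and all tested loci at the top. The V-ATPase list has 10 called higher and 0 called lower (2 and 3 after quantile normalization). The regulators have 3 higher and 14 lower (0 higher after quantile normalization, 9 lower with the length trend removed). Of all tested loci 25.9% were called higher and 25.7% lower after quantile normalization. With the length trend removed these shares were 30.4% and 15.4%.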

How the data were processed

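Polyadenylated liver RNA was extracted with Trizol and prepared with TruSeq kits, per the labels' protocols. The submitters' processing notes list TopHat 1.4.1, SAMtools 1.4.1, Cufflinks 2.0.2, Cuffdiff 2.0.2 and mm9. The deposited FPKM values, made by the authors, were used unscaled, with a position and symbol per locus. No strand setting is stated in the sources used here, so reads of overlapping genes cannot be told apart. Deposited starts were raised by 1.

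Libraries were grouped by the labels. limma 3.58.1 in R 4.3.3 was fitted to log2(FPKM + 1) of the 10865 loci that reached an FPKM of 1 in 2 libraries or more, with 4 group means and a mean-variance trend. P-values are two-sided. The scale understates changes of low genes. The members and lists were chosen with earlier results of these data known. Members with values in every library were those called in a comparison, or with an unadjusted p under 0.05 and no overlap, at most 20, with family partners. Pathway genes named were the 8 with the smallest p in each comparison with calls.

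Alternatives were pseudocounts of 0.1 and 0.5, no filter, an FPKM of at least 5, median-ratio scaling, quantile normalization, no trend, a replicate block, a length correction, 4 libraries only, and each library left out. The length correction was first run with the longest reference transcript of each gene. A version with RefSeq-paired transcripts was added after it was seen that the first ended the Ctsl call. Both are reported.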

Additional observations from a re-analysis of the deposited data

How the results depend on the processing

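The alternatives gave 1686 values for 91 results of single genes. These results were chosen for a call or a small p, and they include the pathway genes with the smallest p. Of the values, 1515 kept direction and side of the threshold, 152 lost a call, 14 gained a call and 5 changed sign. The share kept is therefore not a measure for all members. Of the member calls on re-feeding over both genotypes, 6 of 11 falls and 1 of 8 rises were kept in all 18 alternatives. The 5 sign changes came with quantile normalization. On re-feeding over both genotypes they were Lamp1 at -0.20, Ctsd at -0.13 and Becn1 at -0.060, in controls Lamp1 at -0.094 and in LMKO Ctsb at -0.14.

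The number of members called in fasted LMKO against control was 0 with no filter, with the replicate block and with only the 4 fasted libraries, and 0 to 1 with each library left out. Over both states it was 0 with the replicate block and 0 to 0 with each library left out. On re-feeding it was 8 to 12 in controls, 6 to 10 in LMKO and 12 to 17 over both with each library left out. With no filter, the 1 member called over both states was Ulk1 (limma adjusted p = 0.0446), not Wipi1. Calls over all tested loci under these settings are not given here. Changes in these counts are thus not shown to be particular to the members.

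The labels number replicates in each group. Same-numbered libraries did not deviate together across loci (correlations of -0.0835 to -0.00835). A correlation over loci cannot exclude a pairing, and the main model used none. With the replicate block 11 members were called on re-feeding in controls, 9 in LMKO and 14 over both. Calls over all loci with the block are not given here. A change from the main counts is thus not shown to be particular to the members. With the block Wipi1 had a limma adjusted p of 0.0855 in fasted LMKO against control.

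The members' median log2 fold change moved with scaling. With median-ratio scaling it was 0.015 in fasted LMKO against control, 0.0034 over both states, and on re-feeding -0.21 in controls, -0.25 in LMKO and -0.26 over both. With quantile normalization the same values were 0.042, 0.0038, -0.35, -0.30 and -0.38. With the length trend removed the re-feeding median was -0.042 in LMKO and -0.075 over both genotypes, and with RefSeq-paired transcripts, chosen after seeing the data, -0.0065 and -0.044. An FPKM of at least 5 gave -0.11 in controls. With each library left out the medians were 0.00080 to 0.14 for re-fed LMKO against control and, on re-feeding, -0.16 to -0.052 in controls, -0.18 to -0.11 in LMKO and -0.17 to -0.070 over both. The cause of these shifts was not tested. Total fragment numbers are not known, so no counting error is given.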
